A study of Mus musculus with 50 samples.

Results

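The 9 CHD genes (Chd1 to Chd9) were described by the ATAC-seq peaks at each gene, that is every merged peak that overlapped the gene span in RefSeq or lay within 2 kb of it. There were 105 such peaks of 144465 in the whole data set, and all 105 entered every test. ATAC-seq, in which the Tn5 transposase cuts DNA that is not packed in nucleosomes, measures how accessible the chromatin of a gene is and not how strongly the gene is expressed. The nuclei were sorted for the neuronal marker NeuN, taken from 1 ventral hippocampus per mouse, so that fewer nuclei of a neuron type and less open chromatin per nucleus cannot be told apart.

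All mice were C57BL/6JRj males born to dams of 1 breeding stock, with no genetic change or drug named for any group, and whole brains were frozen in a hexane bath. The dams had been sent to 5 rearing facilities (RFs), where the pups were born and reared. The groups are the 5 RFs at TP2, when test-naive mice of about 14 weeks were killed in 1 common test laboratory, and the same 5 RFs at TP1, when a littermate of each was killed at 8 weeks in its own RF. Each group has 5 libraries, each from 1 mouse, which gives 50 libraries. The facilities differed in cages, handling, bedding, diet and light regime at once, and no single factor of housing can be read from them. Age, laboratory, amplification and sequencing all changed together between the TPs and cannot be told apart.

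Total counts in peaks per library lay between 5111223 and 36401717 at TP2 (median 26030443) and between 33663505 and 77396321 at TP1 (median 44453692). Among 100 same-group library pairs, 20 showed no difference beyond counting noise. Such libraries were counted as 1 sample in every mean ± SD, which leaves 39 samples. At TP2, 3 of 25 libraries (RF1 replicates 3 and 5 and RF2 replicate 5) lay nearest to a library of another RF, whereas at TP1 all 25 lay nearest to one of their own RF. Between RFs, 7 pairs were also alike within counting noise, all at TP2. RF1 replicate 3 was alike with RF2 replicates 1, 2, 3 and 4. RF1 replicate 5, RF2 replicate 5 and RF5 replicate 3 were alike with each other. These 3 libraries differed beyond noise from every library of their own RF. They stayed in the main tests and in every mean. Marker genes were measured at the promoter peak or, where the strand of the gene was not known, at the peak of whichever gene end had more counts. The start was known for 8 of 11 neuronal, 3 of 4 astrocyte, 1 of 5 oligodendrocyte, 1 of 3 microglial and 1 of 2 endothelial genes. These peaks of 11 neuronal genes summed to 286 to 343 CPM per library at TP2 and to 256 to 389 CPM at TP1, those of 4 astrocyte genes to 19 to 29 and 16 to 29 CPM, those of 5 oligodendrocyte genes to 27 to 38.5 and 30.4 to 44.0 CPM, those of 3 microglial genes to 17.9 to 28.8 and 17.1 to 31.6 CPM, and those of 2 endothelial genes to 6.75 to 10.2 and 7.16 to 10.3 CPM. CPM are a library's counts relative to its TMM-scaled total. Regulatory regions of the other cell types are often partly open in neurons, so these sums are not shares of cells.

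CHD proteins are remodellers that use ATP to slide, space or evict nucleosomes, and they carry paired chromodomains that bind histone tails or DNA. Family I (Chd1 and Chd2) acts at transcribed genes, family II (Chd3, Chd4 and Chd5) supplies the motor subunit of the nucleosome remodelling and deacetylase (NuRD) complex, and family III (Chd6 to Chd9) acts mostly at enhancers and promoters. Several members are known for the nervous system: in humans, variants of CHD2 cause childhood epilepsy, those of CHD7 cause CHARGE syndrome, and those of CHD8 are among the strongest single-gene causes of autism.

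The promoter peak of a gene is the peak over the gene start or else the nearest peak within 2 kb of it, and the other peaks are numbered from there along the gene. Only that of Chd3 does not cover the start, from which it lies 117 bp. The deeper peak 2 of Chd3 (mean 1483 counts, against 336 at the promoter peak) lies 2074 bp from the start and counts as gene body. The start of each gene was the end of its RefSeq span that its strand makes the first. The strand of Chd4, Chd5, Chd6, Chd8 and Chd9 could be taken from the RefSeq promoter table (GRCm38.p6). That of Chd7 came from a list of the study, and those of Chd1, Chd2 and Chd3 from general knowledge. The sequences of the matched promoters are shown because the promoter peaks are described most closely here. All 9 depended on RF at TP1, where 81.6% of all promoter peaks did, and 7 of them at TP2, where 58.3% did. Each sequence runs from 250 bases before a start in the promoter table to 50 bases after it, and all 300 bases lie inside the promoter peak. The start in that table can differ from the span end used for the peaks. For Chd9 it is base 90828835, against 90828302 for the span, and for Chd8 base 52257760, against 52258042. Capitals mark GC boxes (GGGCGG or its reverse complement CCGCCC) and CCAAT boxes (CCAAT or ATTGG).
Chd4 (chr6:125095731-125096030, plus strand): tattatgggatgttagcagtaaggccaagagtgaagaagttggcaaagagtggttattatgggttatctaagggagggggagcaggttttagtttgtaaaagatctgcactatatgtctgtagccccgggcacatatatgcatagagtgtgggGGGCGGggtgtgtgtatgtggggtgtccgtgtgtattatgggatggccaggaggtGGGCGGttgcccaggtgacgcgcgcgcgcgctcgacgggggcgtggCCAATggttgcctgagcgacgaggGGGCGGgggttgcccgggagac
Chd5 (chr4:152338401-152338700, plus strand): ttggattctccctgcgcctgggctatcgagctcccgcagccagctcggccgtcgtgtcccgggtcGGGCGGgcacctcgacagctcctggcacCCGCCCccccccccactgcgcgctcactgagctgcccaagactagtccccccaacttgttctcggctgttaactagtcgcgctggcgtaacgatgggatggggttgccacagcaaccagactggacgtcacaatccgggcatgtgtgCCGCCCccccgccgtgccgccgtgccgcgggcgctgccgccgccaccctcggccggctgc
Chd6 (chr2:161109037-161109336, minus strand): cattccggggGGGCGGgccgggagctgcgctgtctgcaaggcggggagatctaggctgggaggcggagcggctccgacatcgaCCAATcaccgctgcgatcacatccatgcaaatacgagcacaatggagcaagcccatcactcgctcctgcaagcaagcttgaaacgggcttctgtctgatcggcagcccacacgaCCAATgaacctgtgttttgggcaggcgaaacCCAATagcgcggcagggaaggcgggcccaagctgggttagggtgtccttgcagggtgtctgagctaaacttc
Chd8 (chr14:52257711-52258010, minus strand): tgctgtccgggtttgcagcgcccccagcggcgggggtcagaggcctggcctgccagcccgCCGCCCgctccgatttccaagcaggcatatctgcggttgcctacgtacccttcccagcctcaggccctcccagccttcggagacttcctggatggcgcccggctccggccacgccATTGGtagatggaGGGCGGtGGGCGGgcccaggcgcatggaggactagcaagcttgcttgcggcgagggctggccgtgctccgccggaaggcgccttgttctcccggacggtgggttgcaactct
Chd9 (chr8:90828585-90828884, plus strand): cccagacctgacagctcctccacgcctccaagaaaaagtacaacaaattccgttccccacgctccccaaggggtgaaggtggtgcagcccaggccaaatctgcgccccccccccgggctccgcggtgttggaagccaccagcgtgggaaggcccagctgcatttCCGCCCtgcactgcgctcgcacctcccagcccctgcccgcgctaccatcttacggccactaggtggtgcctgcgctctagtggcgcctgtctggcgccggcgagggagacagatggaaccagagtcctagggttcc

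These promoters are rich in G and C, with 57.0% in Chd4, 70.7% in Chd5, 61.0% in Chd6, 69.3% in Chd8 and 65.7% in Chd9, against a median of 52.7% over 32851 promoters of the table. GC boxes occur 3 times in each of Chd4, Chd5 and Chd8 and 1 time in each of Chd6 and Chd9, and 35.7% of all promoters hold at least 1. CCAAT boxes occur 3 times in Chd6, 1 time in Chd4 and Chd8 and not in Chd5 and Chd9 (37.4% of all promoters hold 1). A TATA box (TATAAA, 13.6% of all promoters) was found in none of them. The ETS core CCGGAAG (8.86%) was found 1 time, in Chd8, and the E-box CACGTG (7.15%), the YY1 core AAGATGGC (2.75%) and the CRE TGACGTCA (1.79%) were in none of these 5 windows on either strand. A match of letters is a description and not a binding site. Chd4 and Chd5 each have a further start whose window lies in the same promoter peak, with 68.3% G and C in Chd4 and 71.3% in Chd5. A further start of Chd9 inside the gene has 34.7% G and C and lies in no CHD peak.

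The number of peaks per gene ran from 3 at Chd8 and 4 at Chd1 and Chd3 to 19 at Chd6, 24 at Chd9 and 25 at Chd2. Chd4 had 6, Chd5 had 9 and Chd7 had 11. Per 100 kb of gene, Chd2 had most with 21.72 peaks and Chd8 fewest with 5.01. Of the 105 peaks, 9 are promoter peaks, 89 lie in the gene body and 7 at the gene end, and 37 had been called in all 10 groups. The promoter peaks are deep, with 157 to 1760 counts on average per library, whereas gene body peaks have a median of 131 counts.

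Per kb of peak, mean accessibility over all libraries was highest at the Chd8 promoter (29.1 CPM per kb), followed by Chd6 (23.7), Chd4 (18.3), Chd9 (15.8), Chd1 (13.2), Chd3 (10.2), Chd5 (10.2), Chd2 (8.95) and Chd7 (8.24). The Chd2 promoter peak is small (475 bp), and the dominant peak of that gene lies 3221 bp further in, at chr7:73537292-73538525, with 31.5 CPM per kb. A peak had been called at the promoters of Chd1, Chd4, Chd5, Chd6, Chd7, Chd8 and Chd9 in each of the 50 libraries, but at the Chd3 promoter in 44 and at the Chd2 promoter in 20.

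Accessibility depended on RF at 26 of the 105 CHD peaks at TP2, where 30.8% of all peaks did, and at 45 of them at TP1, where 59.1% of all peaks did (edgeR quasi-likelihood F-test, FDR below 0.01). Both shares of the CHD peaks are below those of all peaks. At TP2 this turned round when the mean over each 1 Mb stretch of the genome was removed from every library. The share of the CHD peaks was then above that of all peaks (9.44%). Differentially accessible regions (DARs), with a log2 fold change of at least 0.5 between a pair of RFs, numbered 8 at TP2 (21% of all peaks were DARs) and 24 at TP1 (38.6%). RF dependence at both TPs was found at 21 peaks. It was unevenly spread over the genes. The NuRD motor genes Chd3, Chd4 and Chd5 had 13 of 19 peaks at TP2 and 13 of 19 at TP1. Of the neighbouring peaks within 500 kb of Chd3, Chd4 and Chd5, 87.9%, 34.7% and 69.9% depended on RF at TP2. At TP1 these shares were 89.7%, 68.3% and 91.9%. At each TP, the share around every other CHD gene was lower than around any of these. Whether the NuRD motor genes differ from their surroundings was not tested. Chd1 and Chd2 together had 3 of 29 peaks at TP2 and 5 of 29 at TP1. Chd6 to Chd9 had 10 of 57 at TP2 and 27 of 57 at TP1. Depth differed along with this, since 20 of the 26 RF-dependent peaks at TP2 and 25 of the 45 at TP1 were among the 37 peaks found in all 10 groups, whose median was 743 counts, against 95.3 for the others. When the 3 libraries lying nearest to another RF were left out, 40 CHD peaks depended on RF at TP2 and 15 were DARs, whereas with libraries alike within sampling noise summed to 1 sample 10 depended on RF and 5 were DARs. The number at TP2 fell to 15 without replicate 2 or replicate 4 (16.1% and 17.5% of all peaks). That at TP1 fell to 28 without replicate 4 (47.3% of all peaks).

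At TP1 the promoter peaks stood apart from the rest of the genes. All 9 depended on RF (81.6% of 16980 promoter peaks did), and at all 9 the mice of RF4 were lower than the mean of the other RFs. Over all peaks 11.5% were lower in RF4, over all promoter peaks 47.3%, and over the other 96 CHD peaks 11 were. The median log2 fold change of RF4 was -0.41 over the 9 promoters, against -0.19 over all promoters and 0.01 over all peaks. The mice of RF1 were higher at 6 of 9 promoters (24.2% of all peaks and 32.9% of promoter peaks), with a median of +0.26 against +0.02 over all promoters. At TP1 the 11 neuronal marker peaks had their highest sum in RF1 (363 to 389 CPM, against 256 to 350 CPM elsewhere). The 3 microglial ones had their lowest median sum there (17.1 to 23.4 CPM, against 22.1 to 31.6 CPM). So did the 2 endothelial ones (median 7.86 CPM, against medians of 8.22 to 9.2 CPM). The 4 astrocyte ones had their highest median sum in RF1 (27.5 CPM, against medians of 17.5 to 25.7 CPM). For the 5 oligodendrocyte ones the median in RF1 (40.4 CPM) was below only that of RF3 (43.6 CPM). The part of these sums in the RF1 values was not tested. The RF4 call at Chd5 rested on the edgeR fit with replicate number (adjusted p = 0.025 without that term and 0.054 with DESeq2), and the other 8 kept theirs in both. The RF4 values also move with the abundance of a peak: with a loess offset on mean abundance in every library, 4 promoters (Chd1, Chd2, Chd3 and Chd7) remained lower in RF4, and Chd4 and Chd5 turned to +0.07 and +0.01. With regional centring, in which every library has the mean over each 1 Mb stretch of the genome removed, all 9 were lower. The summed level of the 11 neuronal marker peaks was lowest in the same group, 256 to 263 CPM in RF4 against 314 to 389 CPM in the other RFs at TP1, and its part in the result was not tested. At TP1 the summed oligodendrocyte marker peaks were also lowest in RF4 (30.4 to 33.6 CPM against 34.7 to 44.0 CPM), and the microglial ones were at 25.2 to 31.6 CPM in RF4 against 17.1 to 30.3 CPM in the other RFs. The astrocyte median in RF4 was 17.9 CPM, against medians of 17.5 to 27.5 CPM. The endothelial one was 8.32 CPM, against 7.86 to 9.2 CPM. The part of these sums in the RF4 values was not tested.

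**Figure D1:**
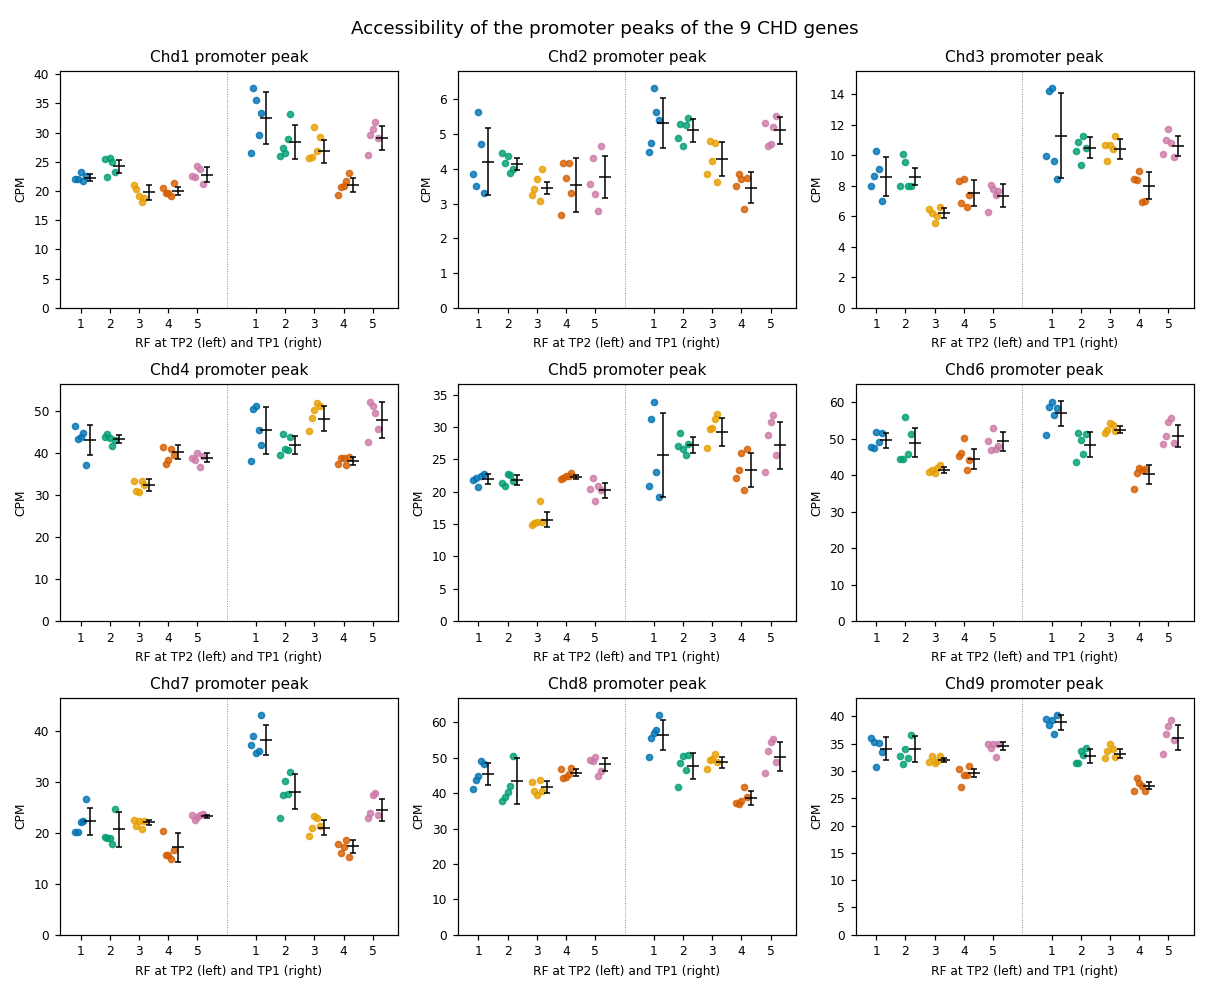
CPM (y axis) at the promoter peak of each CHD gene, by RF on the x axis, with TP2 left of the dotted line and TP1 right of it. Points are libraries and bars are mean ± SD with alike libraries counted once; RF4 has the lowest mean at TP1 at every gene, and at Chd7 the 5 libraries of RF1 at TP1 (35.7 to 43.0 CPM) lie above all others.

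The Chd7 promoter (chr4:8689413-8692246) showed the widest difference of all 9. Chd7 is the CHARGE syndrome gene, and it acts in neural crest, inner ear and neural stem cells. At TP1 it measured 37.2, 39.0, 35.7, 36.1 and 43.0 CPM in RF1, against 22.9, 27.3, 30.1, 27.5 and 31.9 CPM in RF2 and 19.4, 21, 23.3, 22.9 and 21.4 CPM in RF3. It measured 17.7, 16, 17.2, 18.6 and 15.3 CPM in RF4 and 22.9, 23.8, 27.3, 27.8 and 23.4 CPM in RF5. Every library of RF1 lay above, and every library of RF4 below, all libraries of the other RFs. The means were 38.2 ± 2.97 CPM in RF1 (SD, n = 5) and 17.3 ± 1.24 CPM in RF4 (n = 4), a log2 fold change of 1.18 ± 0.07 (SE; adjusted p = 5.8e-21). Compared with the other RFs on average, RF1 was higher by 0.77 ± 0.05 (adjusted p = 7e-19), RF4 fell by 0.70 ± 0.06 (adjusted p = 1.3e-14) and RF3 fell by 0.27 ± 0.06 (adjusted p = 0.00026), the last a call lost where alike libraries were summed (adjusted p = 0.013). In the order RF1, RF2, RF5, RF3 and RF4, the neighbours RF2 and RF5 (adjusted p = 0.085) and RF5 and RF3 (adjusted p = 0.02) did not pass the test. The RF1 difference narrowed to +0.47 with regional centring, and those of RF1 and RF4 passed the test under all 12 alternatives.

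At TP2 the Chd7 promoter measured 20.3, 15.7, 15.7, 14.9 and 16.6 CPM in RF4, a mean of 17.1 ± 2.89 CPM (n = 3). The other RFs lay between 17.8 and 26.6 CPM, with means of 22.2 in RF1, 20.7 in RF2, 22 in RF3 and 23.2 in RF5. The 4 lower libraries of RF4 lay below all libraries of the other RFs, and RF4 replicate 1 overlapped them. RF4 was lower by a log2 fold change of -0.39 ± 0.06 (adjusted p = 4.3e-06), which shrank to -0.17 and missed the threshold with regional centring (adjusted p = 0.066), as it did with alike libraries summed (-0.37, adjusted p = 0.011). Within RF1 and RF2 the highest values were those of replicate 5, 26.6 and 24.6 CPM, which are libraries that lay nearest to RF5. Without them and RF1 replicate 3 the log2 fold change of RF4 was -0.34. The RF differences of the Chd7 promoter differed between the TPs (interaction, adjusted p = 1.1e-11), and RF1 was not set apart at TP2 (+0.13 ± 0.06, adjusted p = 0.11).

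**Figure D2:**
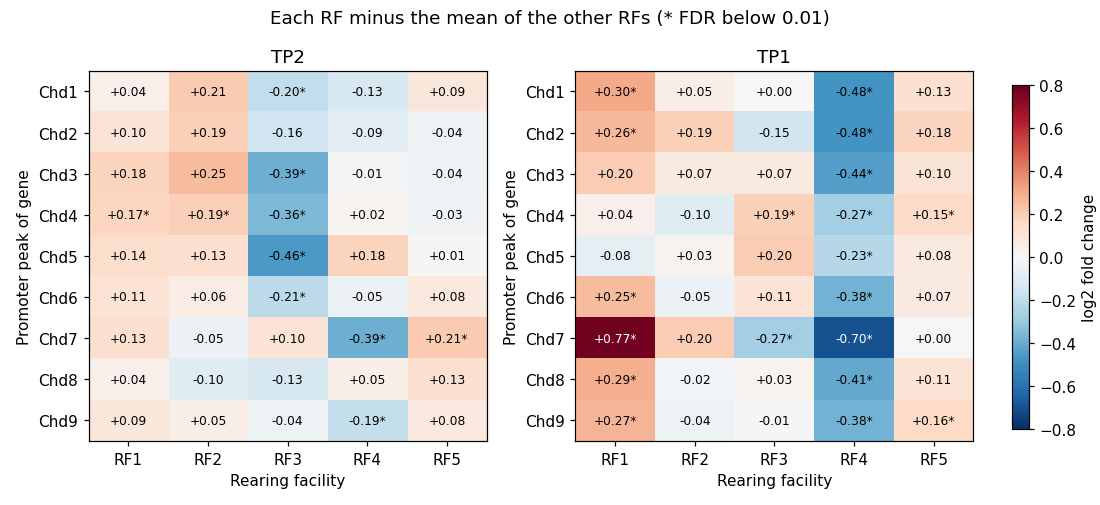
Log2 fold change of each RF (x axis) over the average of the rest at the promoter peak of each CHD gene (y axis), at TP2 (left) and TP1 (right); red is higher and blue lower, and an asterisk marks an FDR below 0.01. At TP1 the RF4 column is negative at all 9 genes (-0.70 to -0.23; Chd4 and Chd5 turn positive with the loess offset), and at TP2 the RF3 column is negative at 8.

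The promoters of Chd1, Chd2, Chd6, Chd8 and Chd9 shared the TP1 pattern of high RF1 and low RF4 in narrower form. At the Chd8 promoter (chr14:52256893-52258490), a gene whose product also restrains beta-catenin, accessibility at TP1 was 37.2, 37.0, 37.8, 41.6 and 39.0 CPM in RF4 and between 41.8 and 62.0 CPM in the other RFs. No library of RF4 overlapped them, and RF4 was lower by a log2 fold change of -0.41 ± 0.05 (adjusted p = 1.5e-10). RF1, with 50.3, 55.6, 56.9, 57.9 and 62.0 CPM, was higher by 0.29 ± 0.04 (adjusted p = 9.4e-08), although its lowest libraries overlapped RF2, RF3 and RF5. With regional centring the RF1 value was 0.10 and missed the threshold (adjusted p = 0.011). At TP2 the Chd8 promoter did not pass the RF test (adjusted p = 0.012), with means of 41.8 to 48.1 CPM.

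At the Chd9 promoter (chr8:90827933-90830029) the 5 libraries of RF4 lay between 26.4 and 28.8 CPM at TP1, against 31.5 to 40.2 CPM elsewhere. RF4 had a log2 fold change of -0.38 ± 0.05 (adjusted p = 1.7e-09), and that of RF1 was 0.27 ± 0.04 (adjusted p = 4.6e-07). RF4 was also the lowest group of Chd9 at TP2, with 30.4, 27.1, 29.2, 29.3 and 30.9 CPM and a log2 fold change of -0.19 ± 0.05 (adjusted p = 0.0027). It overlapped RF1 by a single library, and the call was lost without replicate 1, 2 or 4 (adjusted p = 0.011 to 0.037) and with alike libraries summed (adjusted p = 0.045). At the promoter of Chd6 (chr2:161108350-161110388), whose loss impairs motor coordination in mice, RF4 had 36.3 to 42.1 CPM at TP1 and the other RFs 43.7 to 60.1 CPM, a log2 fold change of -0.38 ± 0.04 (adjusted p = 7.4e-10). Under the loess offset the RF4 values of Chd6, Chd8 and Chd9 shrank to -0.01, -0.05 and -0.09 and none passed the test.

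The Chd1 promoter (chr17:15703960-15705836) lies within 2 kb of the gene 5830433I10Rik. Chd1 binds methylated lysine 4 of histone H3, a mark of active promoters. At TP1 it measured 19.4, 20.7, 20.9, 21.7 and 23.1 CPM in RF4 and 25.6 to 37.6 CPM in the other RFs, without overlap. RF4 was lower by -0.48 ± 0.05 (adjusted p = 1.6e-10), and RF1, at 26.5 to 37.6 CPM, was higher by 0.30 ± 0.05 (adjusted p = 1.4e-06). At TP2 RF3 was lowest with 21.1, 20.4, 19.2, 18.1 and 18.8 CPM (-0.20 ± 0.05, adjusted p = 0.0034), a range that overlapped that of RF4, and the call was lost without replicate 3 or 4 (adjusted p = 0.022 and 0.039). It was also lost with alike libraries summed (adjusted p = 0.058), with regional centring (-0.09, adjusted p = 0.4) and with the loess offset (-0.05, adjusted p = 0.57).

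The start of Chd2 has a pair of peaks, the promoter peak (chr7:73541471-73541945) and the larger second peak, which has the most counts of the 25 peaks of the gene, and both lie within 2 kb of Chaserr, the long non-coding RNA gene that restrains Chd2 in mice. The data do not divide these reads between the genes. At the second peak, TP1 accessibility was 29.2, 32.7, 32.4, 30.6 and 32.7 CPM in RF4 and 39.4 to 57.8 CPM in the other RFs, without overlap, and RF4 was lower by -0.57 ± 0.05 (adjusted p = 4.4e-14). RF1 was higher by 0.37 ± 0.05 (adjusted p = 5.6e-10), with 56.7, 57.8, 56.2 and 55.3 CPM in 4 libraries and 39.8 CPM in RF1 replicate 1, which overlapped the other RFs. At the promoter peak the values were small (2.83 to 6.32 CPM), and RF1 again had the highest mean and RF4 the lowest, but the order between them differed. RF4 was at -0.48 ± 0.08 (adjusted p = 1.1e-05) and RF1 at +0.26 ± 0.08 (adjusted p = 0.0038, but 0.067 without replicate 3 and 0.02 without replicate 4). The step from RF3 to RF4 did not pass the test (adjusted p = 0.086). Of the other 23 peaks of Chd2, 0 passed the RF test of edgeR at TP1 and 1 that of DESeq2, with 5 (edgeR) at an unadjusted p below 0.05, and at them the median log2 fold change of RF4 was 0.01. At TP2 the RF test was passed by the second peak (RF3 at -0.23 ± 0.05, adjusted p = 0.00027) and by the third. The RF3 value of the second peak missed the threshold with regional centring (-0.16, adjusted p = 0.035) and with the loess offset (-0.02, adjusted p = 0.8).

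At TP2 RF3 had the lowest mean at 7 of the 9 promoters (Chd1 to Chd6 and Chd8), and it was called lower at Chd1, Chd3, Chd4, Chd5 and Chd6. At TP1 the promoters of the NuRD motor genes had RF4 lowest, as the others did. RF3 at TP2 was lower than the other RFs at 12 of the 19 peaks of Chd3, Chd4 and Chd5, at 17 of all 105 CHD peaks (9.57% of all peaks) and at 5 of the 9 promoters (34.4% of promoter peaks). These calls turned on scaling: with regional centring, RF3 was lower at 1 of the 19 peaks, and with the loess offset at 4. The neuronal marker peaks at TP2 also had their lowest median sum in RF3 (291 to 297 CPM, against 286 to 343 CPM in the other RFs), as did the oligodendrocyte ones (27 to 31.6 CPM, against 28.6 to 38.5 CPM), and their part in the RF3 values was not tested. Over all 105 peaks, the loess offset gave 3 higher and 4 lower in RF3.

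At the promoter of Chd4 (chr6:125095364-125097667), the broadly expressed NuRD motor, TP2 accessibility was 33.5, 31.1, 30.7, 33.5 and 32.5 CPM in RF3 and 36.7 to 46.5 CPM in the other RFs. No library overlapped, and RF3 was lower by -0.36 ± 0.05 (adjusted p = 9.6e-09). The difference was -0.14 with the loess offset (adjusted p = 0.024). At TP1 RF3 was among the higher groups, with 45.3, 48.4, 50.4, 52.0 and 51.3 CPM (+0.19 ± 0.05, adjusted p = 0.002, lost without replicate 1, 4 or 5, at 0.011 to 0.032). It was 0.00 with regional centring, 0.08 with the loess offset and 0.16 with alike libraries summed, all short of the threshold. The interaction of RF and TP had an adjusted p of 3e-12.

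The promoter of Chd5 (chr4:152337681-152340002), the member found mainly in neurons and testis, had 14.9, 15.2, 15.3, 18.5 and 15.3 CPM in RF3 at TP2 and 18.6 to 22.9 CPM in the other RFs. RF3 lay below all of them, though its replicate 4 came within 0.1 CPM of the lowest library of RF5, and the log2 fold change was -0.46 ± 0.06 (adjusted p = 1.3e-09), which shrank to -0.18 and missed the threshold with regional centring (adjusted p = 0.044). At TP1 the 5 libraries of RF1 spread widely, at 20.9, 31.3, 33.9, 23 and 19.2 CPM (25.7 ± 6.54 CPM, n = 5), and covered the range of all other RFs. The RF4 value at TP1 (-0.23 ± 0.07, adjusted p = 0.0097) was the least secure of the 9 promoters, and the call was lost without replicate 1, 2, 3 or 4 (adjusted p = 0.014 to 0.097), with DESeq2 size factors (adjusted p = 0.011) and with alike libraries summed (adjusted p = 0.08), beside the losses with DESeq2 and without the replicate term. RF1 replicates 2 and 3 were also the highest of their group at the promoters of Chd3 (14.2 and 14.4 CPM, against 8.44 to 9.93 CPM) and Chd4 (50.7 and 51.2 CPM, against 38.2 to 45.6 CPM).

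Chd3, the third NuRD motor, was lower in RF3 at TP2 at its promoter peak (chr11:69368508-69369382) and at 2 large peaks. The promoter peak measured 6.47, 6.20, 5.54, 6.05 and 6.58 CPM in RF3 and 6.27 to 10.3 CPM in the other RFs (-0.39 ± 0.09, adjusted p = 0.0004, but 0.012 without replicate 3 or with alike libraries summed). At peak 2 (chr11:69364453-69367425) the libraries of RF3 measured 28.0 to 32.7 CPM and those of the other RFs 31.5 to 50.7 CPM, with an overlap in RF5, and RF3 was lower by -0.42 ± 0.06 (adjusted p = 1.6e-06). At peak 4 (chr11:69339658-69343578), at the gene end and near Rnf227, RF3 measured 24.2 to 27.9 CPM, against 29.1 to 39.2 CPM in the other RFs, without overlap (-0.45 ± 0.05, adjusted p = 1.4e-10). The values of these 3 peaks were -0.01, -0.04 and -0.07 with regional centring, and that of peak 2 also missed the threshold with the loess offset (-0.20, adjusted p = 0.029). The small peak 3 (chr11:69359859-69360646) had its lowest mean in RF5 at TP2, with 1.33 to 1.92 CPM against 1.27 to 3.81 CPM in the other RFs (-0.62 ± 0.15, adjusted p = 0.003), and in RF1 at TP1 (-0.52 ± 0.10, adjusted p = 2.3e-05). With regional centring both calls were lost, at -0.38 in RF5 (adjusted p = 0.095) and -0.25 in RF1 (adjusted p = 0.027), and that of RF5 was also lost without replicate 1, 2 or 4 (adjusted p = 0.023 to 0.052) and with alike libraries summed (adjusted p = 0.037).

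The peaks around each gene within 500 kb were set beside it. At Chd3, RF3 at TP2 had a median of -0.40 over the gene and of -0.36 over 116 neighbouring peaks, and at Chd5 the medians were -0.28 and -0.30 over 123 neighbours. At Chd4 they were -0.20 and -0.16 over 101 neighbours. At Chd9, the RF4 value of the promoter at TP1 was -0.38 and the median of 11 neighbouring promoters was +0.06. At Chd8 it was -0.41 and the median of 13 neighbouring promoters was -0.35, and at Chd7 -0.70 beside a single neighbouring promoter at -0.08. For RF1 at TP1, the median over Chd7 was +0.36 and that over 70 neighbouring peaks +0.21.

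**Figure D3:**
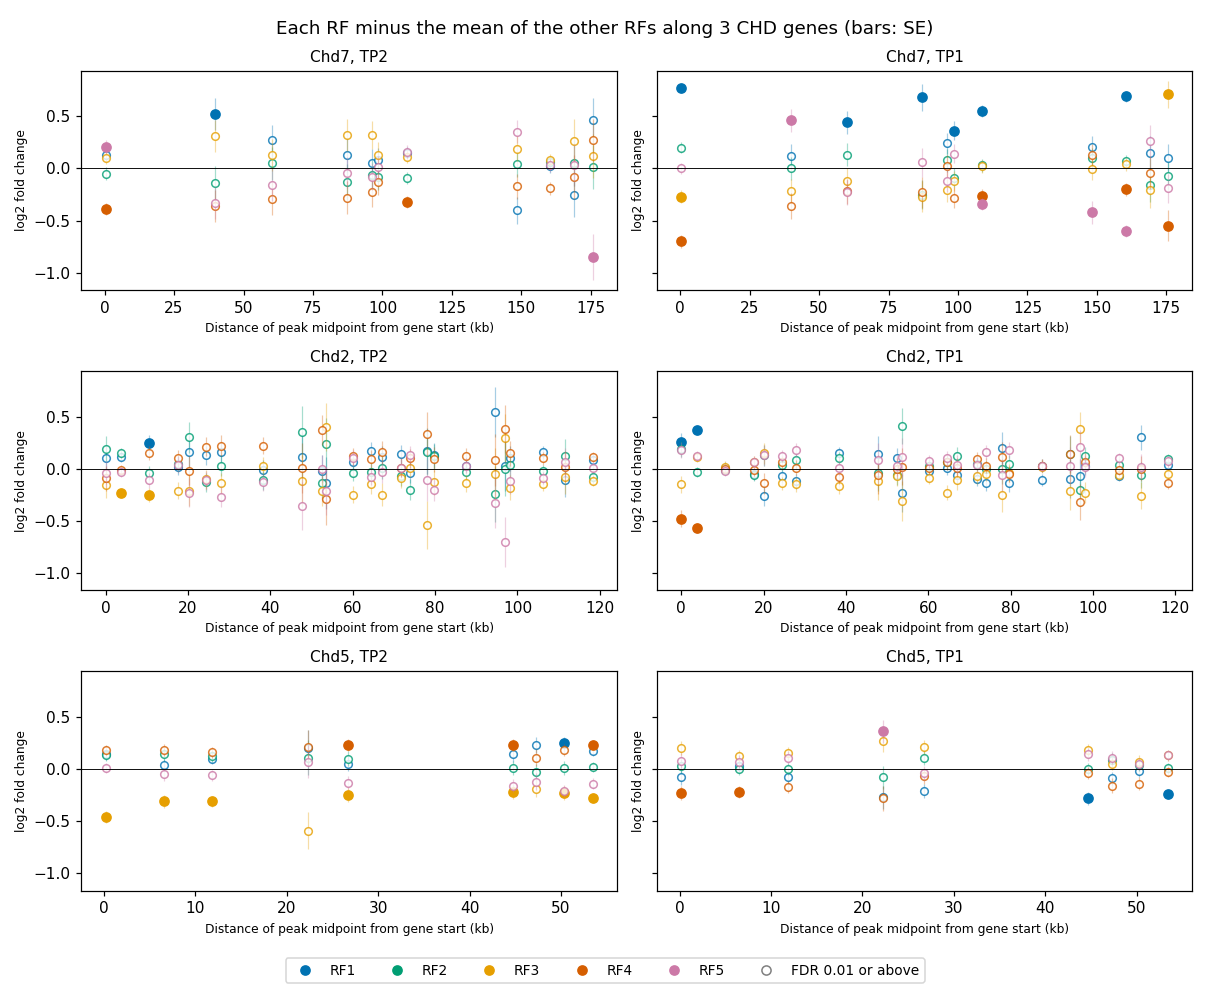
Log2 fold change (y axis) of each RF over the average of the rest at every peak of Chd7, Chd2 and Chd5, by the distance of the peak from the gene start (x axis, kb), at TP2 (left) and TP1 (right). Points are peaks, bars are SE and filled points have an FDR below 0.01: at TP1 filled points of RF1 lie along Chd7 (6 of 11 peaks), those of Chd2 lie only at its first 2 of 25 peaks, and at TP2 RF3 is below 0 at all 9 peaks of Chd5 (4 of them turn positive with regional centring).

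Chd7 differed along much of its length. At TP1, 9 of its 11 peaks depended on RF, all 9 were DARs, and RF1 was higher at 6 of 11. The sign of RF1 was positive at all 10 peaks beyond the promoter, but at 5 of 10 with regional centring. Peak 9 (chr4:8849970-8851716), 159568 bp into the gene, measured 16.3, 15.5, 14.3, 17.8 and 20.1 CPM in RF1, against 10.8 to 13.1 CPM in RF2, 11.1 to 12.1 CPM in RF3 and 9.66 to 10.8 CPM in RF4. It measured 8.04, 8.30, 8.06, 9.01 and 7.58 CPM in RF5. Here RF1 was above and RF5 below every other library, with log2 fold changes of 0.69 ± 0.05 (adjusted p = 3.9e-16) and -0.60 ± 0.06 (adjusted p = 3.2e-11), so the lowest group differed from that of the promoter, where RF5 was in the middle. At TP2 peak 9 did not pass the RF test (adjusted p = 0.12), with group means of 12.7 to 14.5 CPM.

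The largest log2 fold change at TP2 was at Chd7 peak 11 (chr4:8865767-8866284), a small peak near the gene end. It measured 0.365, 0.678, 0.854, 0.599 and 0.712 CPM in RF5, against 0.659 to 1.75 CPM in the other RFs, and the ranges overlapped. RF5 was lower by -0.85 ± 0.22 (adjusted p = 0.0052), which missed the threshold without replicate 1, 2, 3 or 4 (adjusted p = 0.012 to 0.1) and with alike libraries summed (adjusted p = 0.034). At TP1 the same peak was higher in RF3, with 2.12, 1.56, 1.85, 2.58 and 2.61 CPM against 0.680 to 1.68 CPM with an overlap in RF1 (+0.71 ± 0.13, adjusted p = 3.7e-05). Chd7 peak 2 (chr4:8729749-8730778) was higher in RF1 at TP2, at 4.46, 3.36, 1.36, 3.41 and 1.89 CPM (+0.52 ± 0.15, adjusted p = 0.0078), where RF1 overlapped every other RF, and the call was also lost without replicate 2 or 4 (adjusted p = 0.08 and 0.083) and with alike libraries summed (adjusted p = 0.017). The value was +0.35 without replicate 1 (adjusted p = 0.25) and +0.80 without RF1 replicates 3 and 5 and RF2 replicate 5.

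Beyond the promoters, 36 of 96 peaks depended on RF at TP1, among them 8 at Chd7, 7 at Chd6, 6 at Chd9, 5 at Chd5 and 3 at Chd4. At TP2 19 of 96 did, among them 6 at Chd5 and 4 at Chd7. At Chd8 peak 2 (chr14:52243781-52245338), RF4 measured 15.1 to 16.8 CPM at TP1 and the other RFs 18.8 to 28.3 CPM (-0.49 ± 0.05, adjusted p = 3.7e-12), in the same direction as the promoter. At Chd9 peak 11 (chr8:90907540-90909479), RF4 measured 19.5 to 20.3 CPM at TP1 and the other RFs 22.7 to 30.3 CPM (-0.42 ± 0.05, adjusted p = 4.5e-10). At Chd5 peak 6 (chr4:152382091-152384691), RF1 was lower at TP1 (-0.28 ± 0.06, adjusted p = 0.00011), with 12.9, 15.9, 18.3, 11.7 and 11.3 CPM, but the value was +0.05 with regional centring.

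By RF, the CHD peaks divided as follows. At TP1, RF1 was higher at 19 and lower at 10 (24.2% and 22.4% of all peaks), and at 23 and 4 with regional centring. RF4 was higher at 2 and lower at 20 (6.58% and 11.5%), and at 3 and 11 with the loess offset. RF3 was higher at 7 and lower at 2 (9.87% and 3.98%), and RF5 at 6 and 7 (12% and 10.9%). RF2 had 0 calls in either direction (0.679% and 0.496%) with edgeR, 9 higher and 4 lower at an unadjusted p below 0.05, and 0 in either direction with DESeq2. At TP2, RF3 was higher at 0 (7.11%), with 4 at an unadjusted p below 0.05 and 1 with DESeq2, beside the 17 lower. RF1 was higher at 6 (6.24%) and lower at 0 (2.79%), with 1 lower at an unadjusted p below 0.05 and 0 with DESeq2. RF4 was higher at 4 and lower at 3 (5.33% and 4.96%), RF5 at 2 and 2 (2.46% and 2.24%), and RF2 was higher at 1 (0.692%) and lower at 0 (0.127%), with 4 lower at an unadjusted p below 0.05 and 0 with DESeq2.

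Between the TPs, 12 CHD peaks were higher at TP2 (22.6% of all peaks) and 34 were lower (23%). The lower ones included 8 of the 9 promoters (53.8% of promoter peaks). The median log2 fold change of TP2 over TP1 was -0.28 over the CHD promoters, -0.14 over all promoters and 0.00 over all peaks. The promoter values were -0.42 ± 0.04 at Chd3, -0.40 ± 0.04 at Chd5, -0.34 ± 0.03 at Chd1, -0.29 ± 0.06 at Chd2, -0.28 ± 0.03 at Chd7, -0.18 ± 0.03 at Chd4, -0.12 ± 0.03 at Chd8 and -0.09 ± 0.02 at Chd6 (adjusted p = 0.00065 or less). The Chd9 promoter, at -0.04 ± 0.03, did not pass (adjusted p = 0.17). With the loess offset, 4 of the 9 promoters turned positive, and with regional centring all 9 stayed negative and were called.

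All 9 peaks of Chd5 were lower at TP2 (-0.47 to -0.17), but 4 of them were positive with regional centring and 1 with the loess offset. Chd7 ran in opposite directions along its length. Its promoter was lower at TP2, and 7 of its other 10 peaks were higher, with log2 fold changes up to 0.33 at peak 7, and 5 of the 10 passed with either scaling alternative. Of the 25 peaks of Chd2, 9 were lower at TP2, and 3 were lower and 2 higher with regional centring. What changed with TP here cannot be told apart from the change of age, laboratory and sequencing batch.

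**Figure D4:**
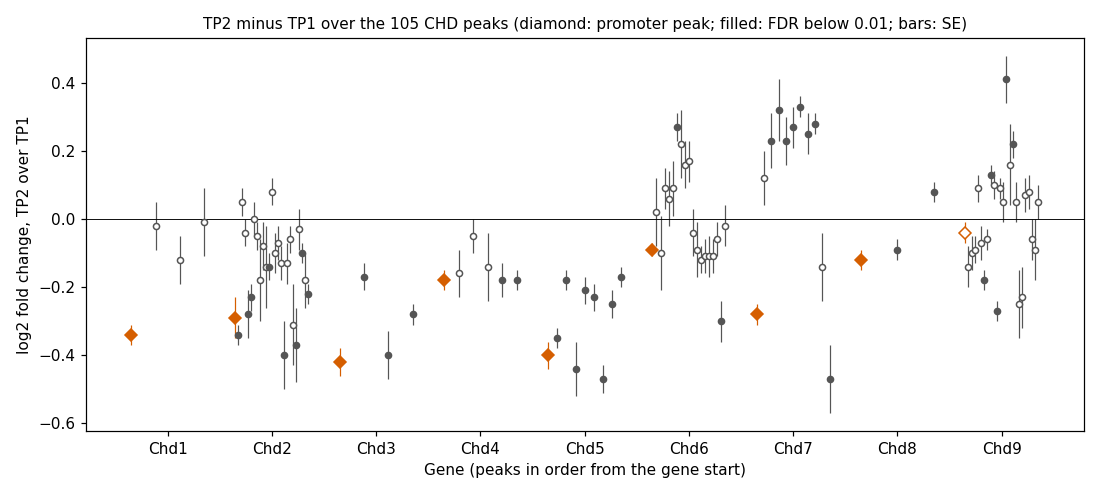
Log2 fold change of TP2 over TP1 (y axis) at the 105 CHD peaks, in order from the gene start for each gene (x axis); diamonds are promoter peaks, filled symbols have an FDR below 0.01 and bars are SE. The promoter diamonds lie below 0 at all 9 genes (4 turn positive with the loess offset), and 7 filled peaks of Chd7 lie above 0.

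The RF differences themselves differed between the TPs at 42 of the 105 CHD peaks, where 54.4% of all peaks had such an interaction, and at 7 of the 9 promoters (76.4% of promoter peaks). The exceptions were Chd2 (adjusted p = 0.11) and Chd9 (adjusted p = 0.014), which does not show that their RF differences stayed alike. Family II had 18 of 19 peaks with an interaction, among them all 9 of Chd5, against 7 of 29 in family I and 17 of 57 in family III. Without replicate 1, 26 of the 105 peaks passed.

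Genes whose products work with CHD proteins, or do the same work, were set beside them by the same rule as the marker genes. The start was known for 9 of 12 NuRD partners, 9 of 10 partners of single CHD proteins and all 13 other remodeller ATPases, and Mta3, Hdac1, Mbd2 and Ash2l were measured at the gene end with more counts. Over all promoter peaks, 34.4% were lower in RF3 at TP2, and at TP1 47.3% were lower in RF4 and 32.9% higher in RF1. Of 12 NuRD partners, such as the Mta and Hdac subunits, all 12 depended on RF at TP2 and all 12 at TP1, beside 58.3% and 81.6% of all promoter peaks. RF3 was lower at 8 of the 12 at TP2 (median -0.28), and RF4 at 9 of the 12 at TP1 (median -0.35). Of 10 partners of single CHD proteins, 8 depended on RF at TP2 and 8 at TP1, with RF3 lower at 6 at TP2 and RF4 lower at 6 at TP1. Among these 10 is Supt16, whose promoter peak (chr14:52195773-52198585) is also Chd8 peak 3, at the end of Chd8. That peak is counted both here and among the 105 CHD peaks. Of 13 other remodeller ATPases, which include the Smarca and Ino80 genes, 12 depended on RF at each TP. RF4 was lower at 12 of these 13 at TP1 (median -0.39), RF1 higher at 9, and RF3 lower at 6 at TP2. Of the 11 neuronal marker peaks, 8 of them at known starts, RF4 was lower at 10 at TP1 (median -0.36).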

How the data were processed

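ATAC-seq was performed on sorted NeuN+ nuclei of the ventral hippocampus, with 1 library per mouse and 5 libraries per RF and TP. The authors trimmed reads with fastp, aligned them to GRCm38 with Bowtie2, marked duplicates with Picard 1.140, called broad peaks per library with MACS2 2.1.4 with duplicates kept, kept peaks present in several libraries of a group, merged them and counted reads with featureCounts, leaving duplicates out. The table deposited by the authors holds these raw counts per merged peak. A second table, said to be normalized, holds the same whole numbers and was left out. The deposited peak lists per library hold a score, a fold enrichment (ratio), a −log10 p and a −log10 q from MACS2, of which only positions and the −log10 q were used. A peak called in a library counted at a merged peak when they shared 1 base.

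Counts were tested with edgeR 4.0.16 (R 4.3.3; TMM factors, filterByExpr by group, robust quasi-likelihood fit) over all peaks, with RF and replicate number within each TP, and with RF, TP, their interaction and replicate number within TP over all 50 libraries. The study fitted RF and processing batch, and the replicate number is the label that groups 1 library of each RF. Benjamini-Hochberg adjustment ran over all peaks in each contrast, so every adjusted p is an FDR over 144449 to 144461 peaks. A log2 fold change of an RF is against the mean of the other 4, with SE. The p-values treat every library as 1 independent mouse. Since 20 same-group pairs differed by no more than counting noise, they can understate the spread between mice. The model over both TPs did not pair the littermates of TP1 and TP2. The tests were checked on simulated counts with a known change in RF4. A log2 fold change of 0.5 in size was found at 37% of the changed peaks at TP2 and at 71% at TP1. For a change of 1 the shares were 92% and 99%. The interaction test found 29% and 78%. Counts of calls at TP2 and TP1 thus do not rest on equal power.

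CPM were scaled by TMM over all 50 libraries. Libraries of a group were counted as 1 sample when their counts over 16647 peaks with 500 to 5000 counts differed by no more than sampling noise (variance ratio up to 1.02 times the expected 2), which leaves n = 3 to 5. Deeper libraries give less counting error, so the TP1 values rest on more reads. Alternatives were DESeq2 1.42.0, its size factors, no filter, no replicate block, each replicate number left out, regional centring (the mean over each 1 Mb stretch removed from every library), a loess offset on mean abundance, alike libraries summed, peaks over the gene span only, a −log10 q of at least 5, a 50% overlap and, chosen after seeing the data for single peaks, the 3 libraries nearest to another RF left out.

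The members and lists were chosen with earlier results of these data known. Named peaks were, for each gene, the promoter peak, the peak with the smallest p over RF at each TP and that with the smallest interaction p, and, over all CHD peaks, the 3 with the largest log2 fold change at an FDR below 0.01 at each TP. The lists (NuRD partners, partners of single CHD proteins, other remodeller ATPases, and markers of neurons, astrocytes, oligodendrocytes, microglia and endothelium) were counted by the peak at the gene start or, where the strand was not known, at the gene end with more counts. Of the 4 microglial, 6 oligodendrocyte and 3 endothelial genes, 3, 5 and 2 had a peak.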

Additional observations from a re-analysis of the deposited data

Results flagged for a closer look

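In 8 of 114 groups of 4 or 5 samples, 1 sample at a named peak lay far from the others of its group by Dixon's test, which chance gives in about 1 of 20 groups. At the second peak of Chd2, RF1 at TP1 had a lowest sample at 39.8 CPM, with the next at 55.3 CPM. The lowest sample was also far off at the Chd6 promoter in RF4 at TP1 (36.3 CPM, next 41.1), at Chd5 peak 6 in RF5 at TP1 (17.2 CPM, next 17.7), at the Chd3 promoter in RF5 at TP2 (6.27 CPM, next 7.63) and at the Chd9 promoter in RF5 at TP2 (33.4 CPM, next 34.9). The highest sample was far off at Chd8 peak 2 in RF1 at TP2 (23.3 CPM, next 19.1) and in RF5 at TP2 (23.7 CPM, next 21.9), and at Chd7 peak 11 in RF1 at TP1 (1.68 CPM, next 1.5).

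The RF differences at TP2 differed from those at TP1 at 17 of the 19 named peaks, by the edgeR interaction test. Among promoters the adjusted p was 3e-12 at Chd4, 1.1e-11 at Chd7, 1.6e-08 at Chd5, 4.4e-08 at Chd8, 2e-07 at Chd6, 1.6e-05 at Chd1 and 0.00015 at Chd3. Among other peaks it was 4.6e-12 at Chd2 peak 2, 4.9e-12 at Chd7 peak 9, 2.1e-09 at Chd3 peak 2, 6.9e-09 at Chd3 peak 3, 3e-07 at Chd3 peak 4, 5.1e-07 at Chd5 peak 6, 7.4e-07 at Chd8 peak 2, 1.5e-06 at Chd9 peak 11, 0.00039 at Chd7 peak 2 and 0.0016 at Chd7 peak 11. The TPs differ in depth, age, laboratory and sequencing batch, which cannot be told apart.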

How the results depend on the processing

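With regional centring, 14 CHD peaks depended on RF at TP2, a share above the 9.44% of all peaks. There were 3 DARs at TP2 and 13 at TP1, and 2 promoters were lower in RF3 at TP2. With the loess offset, 4 promoters were lower in RF4 at TP1 and 2 in RF3 at TP2. With alike libraries summed, 10 peaks depended on RF at TP2, 5 were DARs at TP2 and 2 promoters were lower in RF3 at TP2. Without RF1 replicates 3 and 5 and RF2 replicate 5 at TP2, 40 peaks depended on RF (49.5% of all peaks) and 15 were DARs. The cause was not tested. With 1 replicate number left out in turn, 28 to 46 peaks depended on RF at TP1 (47.3% to 58.3% of all peaks) and 15 to 32 at TP2 (16.1% to 38.9%). DARs numbered 20 to 23 at TP1 and 3 to 11 at TP2, 26 to 44 peaks had an interaction and 37 to 47 differed between TP2 and TP1. Promoters lower in RF4 at TP1 numbered 8 to 9, those higher in RF1 at TP1 5 to 7 and those lower in RF3 at TP2 3 to 5. DESeq2, its size factors, no filter and gene spans only kept each count within 1.5 times.

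Single values changed sign in 8 cases. With regional centring these were Chd3 peak 2 in RF3 at TP1 (-0.04), Chd3 peak 4 in RF4 at TP2 (-0.04), and Chd5 peak 6 in RF1 at TP1 (+0.05) and in RF3 at TP2 (+0.06). With the loess offset they were the promoters of Chd4 (+0.07) and Chd5 (+0.01) in RF4 at TP1, the Chd6 promoter in RF3 at TP2 (+0.03) and Chd3 peak 2 in RF4 at TP1 (+0.06). Of the 60 single values, regional centring kept 7 of 23 calls at TP2 and 27 of 37 at TP1, the loess offset 9 and 24, and alike libraries summed 6 and 26.

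Without the replicate block, 42 peaks depended on RF at TP1 (56.6% of all peaks) and 26 at TP2 (30.8%). DARs numbered 24 and 8, 40 peaks had an interaction and 43 differed between the TPs. Libraries with the same number deviated together little (mean correlation 0.0523 at TP1, over 0.1 in 12 of 50 pairs, and 0.00221 at TP2, in 1 of 50). Those with different numbers had a mean of -0.0131 at TP1, over 0.1 in 15 of 200 pairs, and of -0.000557 at TP2, in 0 of 200. Deviations were taken from the mean of each group, so a mean above 0 for the same number pushes that for different numbers below 0. The mean for different numbers is therefore no independent baseline. Whether the number is the processing batch was not tested. A called peak overlapped the Chd2 promoter in 20 libraries, in 1 at a −log10 q of at least 5 and in 5 at a 50% overlap, so depth limits what can be said of it.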
